A study of Oryza sativa with 12 samples.

Results

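The 9 genes described here encode transcription factors that govern storage protein and starch genes in the filling rice grain: NAC20, NAC26, RPBF, RISBZ1 (also called bZIP58), RSR1, NF-YB1, NF-YC12, NAC127 and NAC129. They were chosen by locus identifier, with earlier results of these data known. Each of the 9 listed loci had a row of its own among the 50708 rows of the deposited table. Total RNA was sequenced from 12 rice libraries, 3 in each of 4 groups, from a pair of near-isogenic lines that differ in heat tolerance at grain filling. The groups were the heat-tolerant line XN0437T under high night temperature stress, XN0437T in control, the heat-sensitive line XN0437S under the same stress and XN0437S in control; they are called the tolerant and the sensitive line below. The labels name neither the temperatures, nor how long the stress lasted, nor an organ. They do not state whether the 3 libraries of a group stem from separate plants, and the p-values cover library-to-library spread alone, which could be technical. Each line is a single genotype, so a difference between the lines holds for that genotype pair.

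Cereal endosperm fills with starch and storage protein under a small set of transcription factors that bind motifs in the promoters of glutelin, prolamin and starch enzyme genes. RISBZ1 is a bZIP factor that binds the GCN4 motif, and RPBF is a DOF factor that binds the prolamin box; the 2 act together on storage protein promoters. NAC20 and NAC26 are endosperm NAC factors with overlapping function in activating starch and storage protein genes, NF-YB1 and NF-YC12 are subunits of a CCAAT-binding complex, NAC127 and NAC129 are seed NAC factors that can form a heterodimer, and RSR1 is an AP2 factor known as a negative regulator of starch synthesis genes.

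All 9 loci passed the filter on low counts, with between 408 and 99127 counts per library in libraries of 85496090 to 100353570 counts. Under stress NAC20, NAC26, RISBZ1, RSR1 and NAC129 were lower in both lines, and NF-YC12 and NAC127 were higher in both lines, under TMM scaling; with library totals alone NAC26 and RISBZ1 changed sign in the sensitive line. In the tolerant line 2 of the 9 rose, 6 fell and 1 (RPBF) was not called, at an adjusted p under 0.05 in edgeR's quasi-likelihood test, where 33.2% of the 33281 tested loci were called (16.7% rose and 16.6% fell). The sensitive line likewise had 2 that rose, 6 that fell and 1 (NF-YB1) that was not called, where 32.1% of all tested loci were called (16.3% rose and 15.9% fell). The stress and control libraries did not overlap in CPM, the count relative to the TMM-scaled library size, for any of the 9 genes in either line. The share of all tested loci without such overlap was not computed. On the deposited FPKM, stress and control overlapped for NAC26 in the tolerant line, RPBF in the sensitive line and NF-YB1 in both. In the sensitive line NAC26 and RISBZ1 did not overlap in FPKM but were higher under stress, opposite to their direction in CPM. NAC26 had 410.8 to 412.4 FPKM under stress and 357.4 to 387.1 in control, and RISBZ1 had 60.07 to 64.82 and 55.78 to 58.46. The median log2 change of the 9 was -0.52 in the tolerant line and -0.32 in the sensitive line, beside 0.05 and 0.04 over all tested loci.

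**Figure D1:**
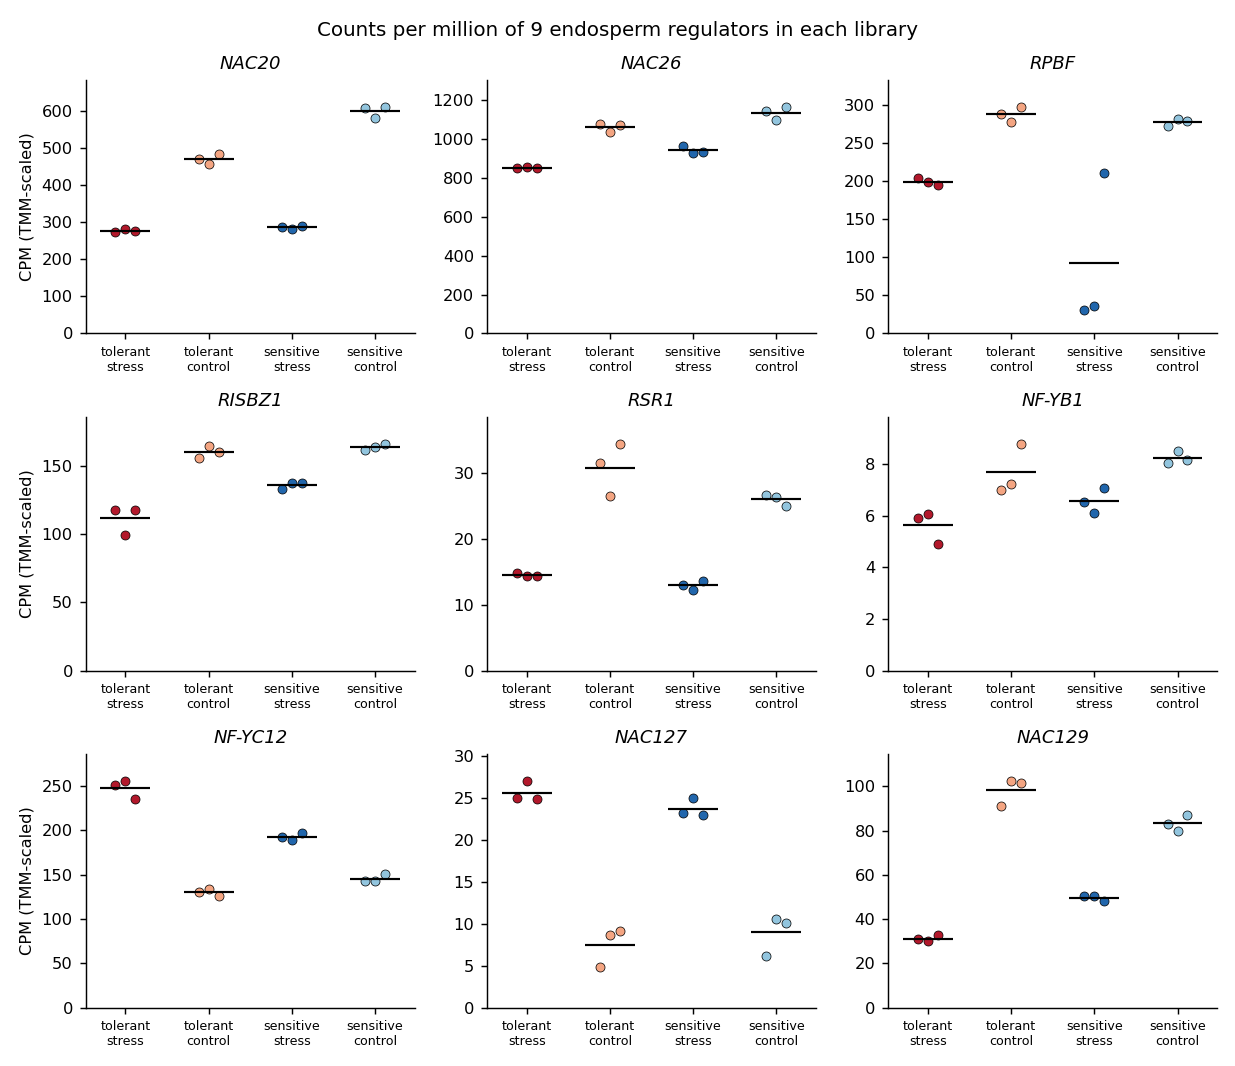
CPM (TMM-scaled, linear axes from 0) of the 9 regulators; each point is 1 library, 3 per group, and the black bar is the group mean. Stress libraries lie below control libraries for 7 genes and above them for NF-YC12 and NAC127, and 2 of the 3 sensitive stress libraries are far below the rest for RPBF.

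NAC20 (LOC_Os01g01470, chromosome 1, 241641 to 243468, plus strand, as the table gives it) had 273.9, 280.3 and 276.3 CPM in the stressed tolerant libraries, against 469.3, 455.5 and 483.9 CPM in the tolerant controls. Sensitive libraries had 286.4, 281.2 and 288.8 CPM under stress, against 606.8, 581.2 and 610.0 CPM in control. The stressed libraries of the lines lay close together while the controls were apart, with the sensitive controls highest. NAC20 fell 1.70-fold in the tolerant line (log2 -0.76 ± 0.04 SE, edgeR adjusted p = 1.94e-08) and 2.099-fold in the sensitive line (log2 -1.07 ± 0.04, edgeR adjusted p = 1.6e-09).

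NAC26 (LOC_Os01g29840, chromosome 1, 16719231 to 16722617, minus strand), the partner of NAC20 in storage gene activation, changed less. It had 849.2, 853.7 and 849.6 CPM in the stressed tolerant libraries, against 1077, 1036 and 1071 CPM in the tolerant controls. NAC26 values in the sensitive line were 965.7, 924.8 and 933.2 CPM under stress, against 1143, 1095 and 1164 CPM in control. The groups did not overlap in either line, and NAC26 fell 1.25-fold in the tolerant line (log2 -0.32 ± 0.04, edgeR adjusted p = 1.74e-05) and 1.205-fold in the sensitive line (log2 -0.27 ± 0.04, edgeR adjusted p = 8.54e-05). With library totals as the only scaling this difference was -0.002 in the tolerant line and 0.15 in the sensitive line, so the direction of NAC26 depends on the scaling. On the deposited FPKM, limma called NAC26 higher under stress in the sensitive line (0.15 on the log2 scale, limma adjusted p = 0.011) and gave 0.01 in the tolerant line (limma adjusted p = 0.809). The table holds 2 short rows on the plus strand under the same locus, with at most 202 counts in any library, and a plus-strand locus, LOC_Os01g29830, overlaps the NAC26 row by 239 bases.

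Within this pair the balance moved toward NAC26. On the deposited FPKM scale, which is per length, NAC20 made up 29.3% ± 0.185 of the pair's sum in stressed tolerant libraries and 36.0% ± 0.438 in tolerant controls (SD, n = 3 each). Its share in the sensitive line was 27.9% ± 0.428 under stress and 40.2% ± 0.175 in control (SD, n = 3 each). The shares of stressed and control libraries did not overlap in either line, and a share is free of the scaling between libraries.

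RPBF (LOC_Os02g15350, chromosome 2, 8590287 to 8594355, minus strand) had 204.0, 199.7 and 195.3 CPM in the stressed tolerant libraries, against 288.3, 278.1 and 298.1 CPM in the tolerant controls. RPBF in the sensitive line had 31.4, 36.7 and 211.3 CPM under stress, against 272.5, 282.2 and 279.0 CPM in control. The stressed sensitive libraries thus split: replicate 3 lay near the stressed tolerant libraries, and replicates 1 and 2 lay 6.72-fold and 5.76-fold below replicate 3. The counts behind them are 3216 and 3925 in replicates 1 and 2 and 22442 in replicate 3. Scaled by library totals with 1 CPM added to each value, RPBF was the 1 row of 50708 more than 2-fold below the lowest other library in both of these replicates. With that addition, rows at 1 CPM or less in any other library could not qualify. Jumps of this size within a group were not confined to that group: 47 of 9172 loci with a mean of at least 10 CPM (0.512%) had as large a ratio of highest to lowest library in stressed sensitive plants, as did 48 in stressed tolerant, 60 in control tolerant and 58 in control sensitive plants.

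Because the fit shares its spread over the 4 groups, these libraries decide what is called for RPBF. The edgeR fit gave log2 -1.58 in the sensitive line (95% interval -2.74 to -0.41, adjusted p = 0.0399) and log2 -0.53 in the tolerant line (95% interval -1.67 to 0.61, adjusted p = 0.491). Without sensitive stress replicate 3 the change in the sensitive line was -3.03 (edgeR adjusted p = 6.96e-10), and without replicates 1 and 2 it was -0.39 (edgeR adjusted p = 0.00294). The call in the sensitive line was lost when any other single library was left out, with edgeR adjusted p between 0.0518 and 0.117. In the tolerant line the change stayed at -0.53 and was called without replicate 3 of the stressed sensitive group (edgeR adjusted p = 3.8e-05) or without its replicates 1 and 2 (edgeR adjusted p = 1.29e-05).

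RISBZ1 (LOC_Os07g08420, chromosome 7, 4322231 to 4326708, minus strand) had 117.7, 99.6 and 117.4 CPM in the stressed tolerant libraries, against 156.2, 164.6 and 160.2 CPM in the tolerant controls. RISBZ1 in the sensitive line had 132.9, 137.9 and 137.9 CPM under stress, against 161.9, 164.1 and 166.1 CPM in control. The controls of both lines overlapped, and the stressed tolerant libraries were the lowest of all 12. RISBZ1 fell by 0.52 ± 0.06 on the log2 scale in the tolerant line (SE, edgeR adjusted p = 4.11e-05) and fell by 0.27 ± 0.06 in the sensitive line (SE, edgeR adjusted p = 0.00663). With library totals alone the value in the sensitive line was 0.15 (edgeR adjusted p = 0.132), the opposite sign.

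RSR1 (LOC_Os05g03040, chromosome 5, 1155968 to 1160205, minus strand) had 14.8, 14.3 and 14.3 CPM in the stressed tolerant libraries, against 31.5, 26.5 and 34.3 CPM in the tolerant controls. Sensitive libraries had 12.99, 12.2 and 13.6 CPM under stress, against 26.6, 26.4 and 24.9 CPM in control. Every stressed library was below every control library of either line. RSR1 fell 2.13-fold in the tolerant line (log2 -1.09 ± 0.10, edgeR adjusted p = 2.06e-06) and 2.01-fold in the sensitive line (log2 -1.01 ± 0.10, edgeR adjusted p = 5.07e-06). This repressor of starch genes was thus lower alongside the activators NAC20 and RISBZ1, under TMM scaling in both lines.

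NF-YC12 (LOC_Os10g11580, chromosome 10, 6404227 to 6405891, plus strand) moved the other way. It had 250.4, 255.1 and 235.4 CPM in the stressed tolerant libraries, against 129.8, 133.5 and 126.3 CPM in the tolerant controls. The sensitive libraries had 191.8, 188.8 and 197.3 CPM under stress, against 142.8, 142.8 and 150.7 CPM in control. The 4 groups did not overlap, with stressed tolerant libraries highest and control tolerant libraries lowest. NF-YC12 rose 1.902-fold in the tolerant line (log2 0.93 ± 0.05, edgeR adjusted p = 2.64e-08) and 1.32-fold in the sensitive line (log2 0.405 ± 0.05, edgeR adjusted p = 5.24e-05).

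NF-YB1 (LOC_Os02g49410, chromosome 2, 30191471 to 30192489, minus strand), the endosperm B subunit known to act on sucrose transporter genes, was the lowest of the 9 by counts in most libraries. It had 5.91, 6.09 and 4.91 CPM in the stressed tolerant libraries, against 7.02, 7.24 and 8.79 CPM in the tolerant controls. NF-YB1 in the sensitive line had 6.56, 6.12 and 7.08 CPM under stress, against 8.03, 8.53 and 8.17 CPM in control. The control libraries were higher in each line by a narrow margin. NF-YB1 fell by 0.45 on the log2 scale in the tolerant line (SE 0.13, edgeR adjusted p = 0.0184), a call lost without tolerant stress replicate 3 (edgeR adjusted p = 0.0822) or tolerant control replicate 3 (edgeR adjusted p = 0.0887). The difference in the sensitive line was -0.32 (95% interval -0.61 to -0.04, edgeR adjusted p = 0.0769) and was not called. With library totals alone it was -0.12 in the tolerant line and 0.09 in the sensitive line.

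The B and C subunits thus shifted in proportion. NF-YB1 made up 3.62% ± 0.255 of the summed FPKM of NF-YB1 and NF-YC12 in stressed tolerant libraries and 8.89% ± 1.21 in tolerant controls (SD, n = 3 each). Sensitive libraries gave 5.33% ± 0.257 under stress and 8.55% ± 0.381 in control (SD, n = 3 each). Both shifts exceeded the spread between libraries, and the summed FPKM was 153.4 ± 3.57 in stressed and 67.8 ± 2.48 in control tolerant libraries (SD, n = 3 each).

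NAC127 (LOC_Os11g31340, chromosome 11, 18293256 to 18297031, plus strand) had the largest rise of the 9. It had 24.9, 27.0 and 24.9 CPM in the stressed tolerant libraries, against 4.86, 8.60 and 9.09 CPM in the tolerant controls. NAC127 in the sensitive line had 23.1, 24.9 and 22.9 CPM under stress, against 6.17, 10.6 and 10.1 CPM in control. Stressed libraries of the 2 lines overlapped, and the control of replicate 1 was the lowest library in each line. NAC127 rose 3.40-fold in the tolerant line (log2 1.77 ± 0.23, edgeR adjusted p = 5.91e-05) and 2.64-fold in the sensitive line (log2 1.40 ± 0.23, edgeR adjusted p = 0.000405).

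NAC129 (LOC_Os11g31380, chromosome 11, 18311651 to 18314173, plus strand) lies close to NAC127 on the same strand and changed in the opposite direction. It had 31.1, 30.0 and 32.7 CPM in the stressed tolerant libraries, against 91.3, 102.3 and 101.5 CPM in the tolerant controls. NAC129 in the sensitive line had 50.5, 50.7 and 48.1 CPM under stress, against 83.2, 79.9 and 86.8 CPM in control. The 4 groups did not overlap, the stressed tolerant libraries being lowest and the tolerant controls highest. NAC129 fell 3.15-fold in the tolerant line (log2 -1.65 ± 0.07, edgeR adjusted p = 1.93e-09) and 1.67-fold in the sensitive line (log2 -0.74 ± 0.07, edgeR adjusted p = 2.89e-06).

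On the FPKM scale NAC127 made up 42.8% ± 2.08 of the summed level of NAC127 and NAC129 in stressed tolerant libraries and 6.43% ± 1.58 in tolerant controls (SD, n = 3 each). Sensitive libraries gave a share of 30.2% ± 0.762 under stress and 8.90% ± 2.31 in control (SD, n = 3 each). The summed FPKM was 32.4 ± 1.10 in stressed and 49.7 ± 3.58 in control tolerant libraries, and 42.4 ± 1.64 in stressed and 40.8 ± 2.26 in control sensitive libraries (SD, n = 3 each). In the sensitive line the makeup of the pair changed while the ranges of its FPKM sum overlapped between stress and control. In TMM-scaled CPM, which is not per length, NAC127 averaged 23.65 in stressed and 8.96 in control sensitive libraries. NAC129 averaged 49.75 and 83.29 CPM there. Its fall in CPM exceeded the rise of NAC127, so the overlap of the sums depends on the scale. A further NAC-type locus, LOC_Os11g31360, whose row lies between these genes, was looked at after the values of its neighbours were seen. It averaged 25.3 ± 2.87 CPM in stressed and 14.7 ± 1.65 CPM in control tolerant libraries, and 16.2 ± 0.668 CPM in stressed and 13.1 ± 0.794 CPM in control sensitive libraries (SD, n = 3 each). It rose by 0.79 on the log2 scale in the tolerant line (edgeR adjusted p = 9.61e-05) and rose by 0.31 in the sensitive line (edgeR adjusted p = 0.0451). The sources used here do not state how reads were divided among these related NAC genes.

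**Figure D2:**
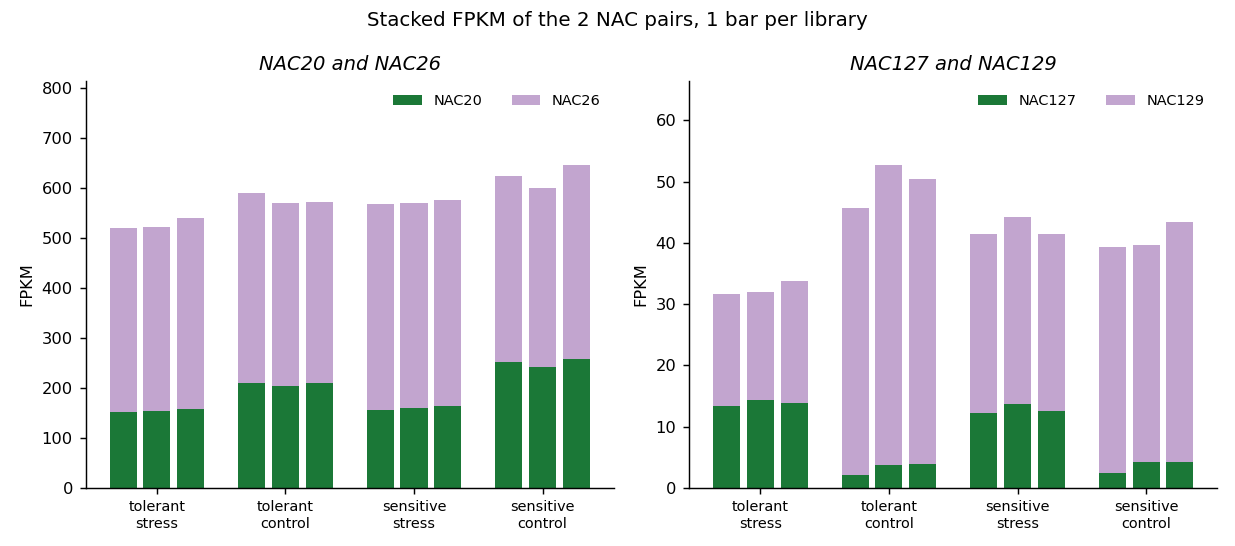
Deposited FPKM of NAC20 stacked with NAC26 (left) and of NAC127 stacked with NAC129 (right), 1 bar per library and 3 per group, on linear axes from 0. NAC20 is a smaller part of its pair under stress, and NAC127 makes up 42.8% of its pair in stressed tolerant libraries and 6.43% in tolerant controls.

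These directions are relative to the scaling. Storage protein transcripts took a smaller part of the stressed libraries, and the TMM factors were 1.11 to 1.18 in stressed libraries and 0.838 to 0.981 in controls. With library totals alone the median log2 change of all tested loci was 0.37 in the tolerant line and 0.46 in the sensitive line, and 76.8% and 83.6% of called loci were higher under stress, in place of 50.2% and 50.6%. The called loci were then 35.9% and 37.2% of all tested loci. The 9 regulators then had 2 up and 4 down in the tolerant line and 2 up and 3 down in the sensitive line, with medians of -0.21 and 0.09. NAC20, RSR1 and NAC129 were lower, and NF-YC12 and NAC127 higher, under stress in both lines with TMM, RLE size factors, library totals and deposited FPKM. With library totals NAC20 changed by -0.44 in the tolerant line and by -0.65 in the sensitive line, and NAC129 by -1.34 in the tolerant line and by -0.33 in the sensitive line. NF-YC12 changed by 1.24 in the tolerant line and 0.82 in the sensitive line, and NAC127 by 2.103 and 1.82, on that scale.

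**Figure D3:**
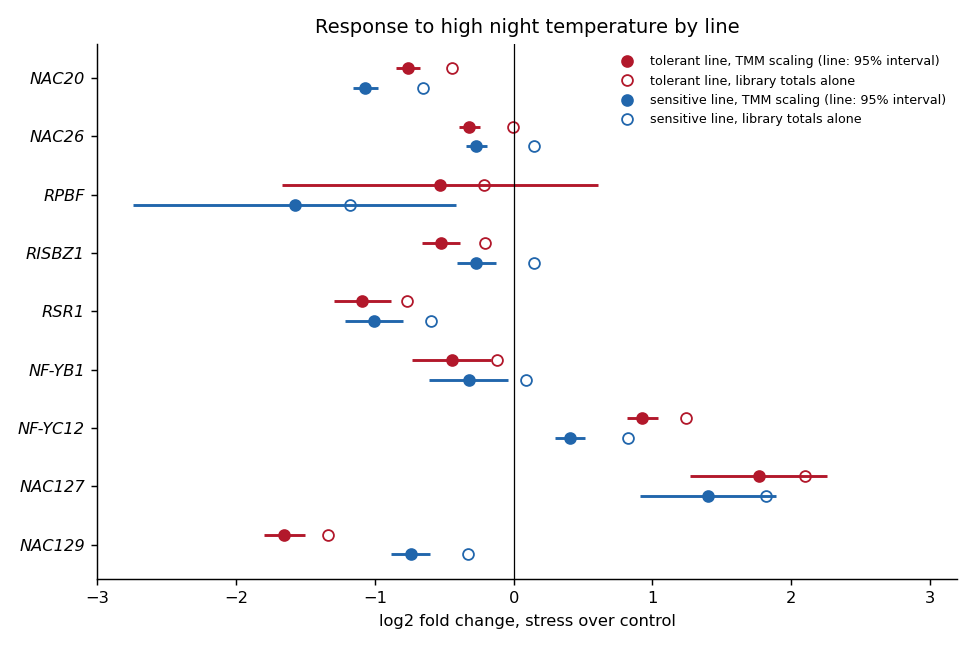
Log2 fold change, stress over control, of the 9 regulators in the tolerant line (red, upper) and the sensitive line (blue, lower); filled points with lines are the TMM-scaled edgeR estimates with 95% intervals, open points the estimates with library totals alone. NAC20, RSR1 and NAC129 lie left of 0 and NF-YC12 and NAC127 right of 0 on both scales, while NAC26, RISBZ1 and NF-YB1 cross 0 in the sensitive line with library totals.

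Between the lines in control, 0 of the 9 genes rose and 1 fell in the tolerant against the sensitive line, where 5.42% of all tested loci were called (2.53% rose and 2.89% fell). That gene was NAC20, with 469.6 ± 14.2 CPM in tolerant and 599.3 ± 15.8 CPM in sensitive controls (SD, n = 3 each). Its log2 difference was -0.35 ± 0.04 (SE, edgeR adjusted p = 0.000347). At an unadjusted p under 0.05 in edgeR the counts were 2 up and 3 down, and DESeq2 called 1 up and 2 down. The shares above hold for edgeR's adjusted p alone, so they are no background for these other counts. NAC129 averaged 98.4 ± 6.19 CPM in tolerant and 83.3 ± 3.47 CPM in sensitive controls (SD, n = 3 each), a log2 difference of 0.24 (95% interval 0.10 to 0.38) whose edgeR adjusted p was 0.0557. It was called under 8 of the alternatives, with log2 differences up to 0.35. The remaining 7 had log2 differences from -0.25 (NAC127, 95% interval -0.74 to 0.23) to 0.245 (RSR1, 95% interval 0.04 to 0.45).

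Under stress 1 of the 9 rose and 3 fell in the tolerant against the sensitive line, where 3.4% of all tested loci were called (1.71% rose and 1.69% fell). NF-YC12 averaged 246.9 ± 10.3 CPM in stressed tolerant and 192.6 ± 4.29 CPM in stressed sensitive libraries (SD, n = 3 each; log2 0.36, edgeR adjusted p = 0.00154). NAC129 averaged 31.3 ± 1.34 CPM in stressed tolerant and 49.8 ± 1.44 CPM in stressed sensitive libraries (SD, n = 3 each; log2 -0.67, edgeR adjusted p = 0.000129). Both calls held when any single library was left out. RISBZ1 had a log2 difference of -0.29 (edgeR adjusted p = 0.0293) and NAC26 of -0.15 (edgeR adjusted p = 0.0448). Leaving out 1 library moved these adjusted p to as much as 0.099 for RISBZ1 and 0.176 for NAC26. RPBF gave 1.10 (95% interval -0.05 to 2.25, edgeR adjusted p = 0.389) with all libraries, 2.55 without sensitive stress replicate 3 and -0.08 without sensitive stress replicates 1 and 2.

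The heat responses themselves differed between the lines for 3 genes, 2 with a higher and 1 with a lower value in the tolerant line, where 2.61% of all tested loci were called (1.27% higher and 1.34% lower). The response of NAC129 was lower in the tolerant line, with a log2 difference of -0.91 (95% interval -1.11 to -0.71, edgeR adjusted p = 0.000221). For NF-YC12 the response was higher in the tolerant line by 0.52 (95% interval 0.37 to 0.68, edgeR adjusted p = 0.00182). NAC20 fell less in the tolerant line, by a difference of 0.31 (95% interval 0.18 to 0.43, edgeR adjusted p = 0.0117). Its stressed values were close in the lines (log2 -0.04, edgeR adjusted p = 0.766), while its controls differed by -0.35. Under scaling by library totals the median difference over all tested loci was -0.10, NAC20 gave 0.21 (edgeR adjusted p = 0.305), NF-YC12 gave 0.42 (edgeR adjusted p = 0.0787) and NAC129 stayed called.

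No difference in response was called for the other 6, and the intervals show how much room they leave. For RISBZ1 the difference was -0.255 (95% interval -0.45 to -0.06, edgeR adjusted p = 0.2). For NAC127 it was 0.37 (95% interval -0.31 to 1.05) and for RPBF 1.05 (95% interval -0.57 to 2.66). NAC26, RSR1 and NF-YB1 gave -0.05, -0.08 and -0.12, with intervals no wider than -0.52 to 0.28.

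Levels can be ordered between genes on the FPKM scale. NAC26 was the most abundant of the 9 in every group, with means of 372.1, 368.7, 411.8 and 372.2 FPKM in stressed tolerant, control tolerant, stressed sensitive and control sensitive libraries. NAC20 came next in every group, but in stressed tolerant plants NF-YC12 (147.8 ± 3.07 FPKM) was close behind it (154.2 ± 3.37 FPKM; SD, n = 3 each). RPBF, RISBZ1 and NF-YC12 filled the middle ranks, between 37.7 and 147.8 FPKM. In tolerant controls NF-YC12 (58.5 to 64.4 FPKM) and RISBZ1 (57.4 to 61.4 FPKM) overlapped. RPBF ran from 12.3 to 85.7 FPKM in stressed sensitive libraries and overlapped RISBZ1, NAC129 and NAC127 there. By group mean NAC129 was sixth in every group, and RSR1, NF-YB1 and NAC127 were the 3 lowest. In stressed sensitive replicates 1 and 2, however, NAC129 (29.29 and 30.58 FPKM) was above RPBF (12.31 and 14.96 FPKM). NAC127 was the lowest of the 9 in both control groups (3.23 and 3.64 FPKM) and passed RSR1 and NF-YB1 under stress (13.9 and 12.8 FPKM).

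The shape of each gene over the 4 groups was compared by the root mean square difference between group means of log2 CPM, each centred on its own mean over the groups. With 4 points per gene this is a description only. Among the 9, RISBZ1 and NF-YB1 were most alike (0.04), followed by NAC26 and NF-YB1 (0.05). The measure is not scaled by how much a gene changes, and these genes changed least of the 9. The root mean square of their own centred means was 0.22 for RISBZ1, 0.21 for NF-YB1 and 0.16 for NAC26. Short distances between them therefore say little about a shared shape. NAC20 was nearest to RSR1 (0.23). NAC127 and NAC129, neighbours on the chromosome, were among the least alike (1.45). Of 8925 loci with an MSU identifier and a mean of at least 10 CPM, the nearest to NAC127 was LOC_Os03g21040, annotated as an r40c1 protein, at 0.04, with 564.2 CPM in stressed and 149.4 CPM in control tolerant libraries. The nearest to NF-YC12 was a row that merges LOC_Os12g37410 and LOC_Os12g37415, annotated as an ocs element-binding factor, at 0.02. The nearest to RPBF, LOC_Os03g27120, annotated as metacaspase-1, was no closer than 0.23.

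Other known endosperm regulators were taken from a list of 9, of which 8 were tested. In the tolerant line 1 rose and 5 fell, and in the sensitive line 1 rose and 4 fell, where 16.6% and 15.9% of all tested loci fell; their median log2 change was -0.33 in the tolerant and -0.50 in the sensitive line. ERF115, an endosperm ERF factor, averaged 16.95 ± 0.745 CPM in stressed and 34.6 ± 1.01 CPM in control tolerant libraries, and 20.3 ± 1.97 CPM in stressed and 38.0 ± 0.883 CPM in control sensitive libraries (SD, n = 3 each; edgeR adjusted p = 7.37e-07 in the tolerant and 2.85e-06 in the sensitive line). The MADS-box genes MADS7 and MADS6 fell in both lines, with log2 changes of -0.75 in the tolerant and -0.64 in the sensitive line for MADS7 and of -1.24 and -1.198 for MADS6. RITA1, a seed bZIP gene, changed by -0.42 in the tolerant line (edgeR adjusted p = 0.0306) and gave -0.35 in the sensitive line (edgeR adjusted p = 0.065). FLO2, a TPR protein that promotes storage gene expression, changed by -0.25 in the tolerant line (edgeR adjusted p = 0.0258) and gave -0.16 in the sensitive line (edgeR adjusted p = 0.139).

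REB, a bZIP factor that binds globulin promoters, was the 1 listed gene that rose. It averaged 24.2 ± 1.22 CPM in stressed and 12.6 ± 1.54 CPM in control tolerant libraries, and 17.4 ± 0.831 CPM in stressed and 12.5 ± 1.21 CPM in control sensitive libraries (SD, n = 3 each; edgeR adjusted p = 1.98e-05 in the tolerant and 0.00417 in the sensitive line). MADS29 was not called in either line (-0.14 in the tolerant and 0.22 in the sensitive line). bHLH144, a partner of NF-YB1 and NF-YC12, had a wide spread between libraries: 79.0 ± 11.7 CPM in stressed and 75.1 ± 44.6 CPM in control tolerant libraries, and 49.9 ± 37.1 CPM in stressed and 129.5 ± 2.63 CPM in control sensitive libraries (SD, n = 3 each). It was called lower in the sensitive line (log2 -1.38, 95% interval -2.35 to -0.40, edgeR adjusted p = 0.0334). Scaled by library totals alone, this list had 1 up and 3 down in the tolerant line and 2 up and 2 down in the sensitive line, with medians of -0.02 and -0.08. On that scale 35.9% and 37.2% of all tested loci were called.

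Storage protein and starch synthesis genes, which these factors are known to act on, were examined in the same fit. Of 18 tested storage protein rows, 0 rose and 13 fell in the tolerant line and 0 were up and 15 down in the sensitive line (at an unadjusted p under 0.05 in edgeR, 0 up and 14 down, and 0 up and 16 down), with medians of -1.19 and -1.01 on the log2 scale. Over all tested loci 16.7% rose and 16.6% fell in the tolerant line, and 16.3% rose and 15.9% fell in the sensitive line. These shares are for the adjusted p, and none is given for the unadjusted counts. Glb1, the alpha-globulin, averaged 1609 ± 43.4 CPM in stressed and 6782 ± 322.7 CPM in control tolerant libraries, and 1776 ± 79.8 CPM in stressed and 8064 ± 70.0 CPM in control sensitive libraries (SD, n = 3 each). It fell by 2.08 ± 0.04 on the log2 scale in the tolerant line (SE, edgeR adjusted p = 6.82e-12) and fell by 2.18 ± 0.04 in the sensitive line (SE, edgeR adjusted p = 1.16e-11). The prolamin rows of LOC_Os05g26240 and LOC_Os05g26720 had log2 changes of -2.33 and -2.29 in the tolerant line and of -2.14 and -2.13 in the sensitive line, all called lower. Glutelin and prolamin loci are near-identical copies, and several share a row, so their single values are uncertain.

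Of 28 starch synthesis genes, 2 rose and 19 fell in the tolerant line and 3 rose and 18 fell in the sensitive line, with medians of -0.52 and -0.47. The shares over all tested loci were 16.7% up and 16.6% down in the tolerant line, and 16.3% up and 15.9% down in the sensitive line. Wx, the granule-bound starch synthase, averaged 1723 ± 27.2 CPM in stressed and 4932 ± 149.9 CPM in control tolerant libraries, and 2168 ± 122.9 CPM in stressed and 4432 ± 66.7 CPM in control sensitive libraries (SD, n = 3 each). Its log2 change was -1.52 in the tolerant and -1.03 in the sensitive line. BEIIb, a starch branching enzyme, gave -1.66 in the tolerant and -1.33 in the sensitive line, and ISA1, a debranching enzyme, -1.43 and -1.49. AGPL3, a large subunit of ADP-glucose pyrophosphorylase, gave -1.66 in the tolerant and -1.49 in the sensitive line, and edgeR called all of these changes. SSI, a soluble starch synthase, was among those that rose, by 1.30 in the tolerant line (edgeR adjusted p = 2.85e-08). It averaged 416.1 CPM in stressed and 169.3 CPM in control tolerant libraries. In the sensitive line it rose by 1.17 (edgeR adjusted p = 1.01e-07), with 378.8 CPM under stress and 168.2 CPM in control. With library totals alone this list had 5 up and 14 down in the tolerant line and 7 up and 11 down in the sensitive line, with medians of -0.21 and -0.06. The storage protein list then had 1 up and 12 down in the tolerant line and 1 up and 11 down in the sensitive line. That scaling called 35.9% of all tested loci in the tolerant line and 37.2% in the sensitive line. Of these called loci, 76.8% and 83.6% were higher under stress.

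Sugar import genes, among them the targets known for NF-YB1, gave 0 up and 4 down of 6 tested in the tolerant line and 1 up and 3 down in the sensitive line, with medians of -0.49 and -0.27. All tested loci gave 16.7% up and 16.6% down in the tolerant line, and 16.3% up and 15.9% down in the sensitive line. Under library totals alone the sugar import counts were 1 up and 2 down in the tolerant line and 2 up and 1 down in the sensitive line, with medians of -0.17 and 0.15. On that scale 35.9% and 37.2% of all tested loci were called. SWEET11, a sucrose exporter that feeds the endosperm, averaged 225.8 ± 7.51 CPM in stressed and 724.0 ± 8.39 CPM in control tolerant libraries, and 253.2 ± 3.34 CPM in stressed and 596.4 ± 9.06 CPM in control sensitive libraries (SD, n = 3 each). The log2 changes of SWEET11 were -1.68 in the tolerant and -1.24 in the sensitive line. SUT1, a sucrose importer, gave -0.78 in the tolerant and -0.53 in the sensitive line, and SWEET4, a hexose transporter, -0.54 and -0.49, and edgeR called all 3 genes lower in both lines. In edgeR's test of the difference between the heat responses, 0 of 18 storage protein rows were called (5 had an unadjusted p under 0.05, and limma on FPKM called 0 of 17). That test called 0 of 28 starch genes higher and 6 lower in the tolerant line (1 and 12 at an unadjusted p under 0.05), and 0 of 6 sugar import genes higher and 2 lower (0 and 4 unadjusted). It called 1.27% of all tested loci higher and 1.34% lower at the adjusted p, and no share is given for the unadjusted counts. For this difference limma on FPKM called 4.42% of 27367 loci.

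**Figure D4:**
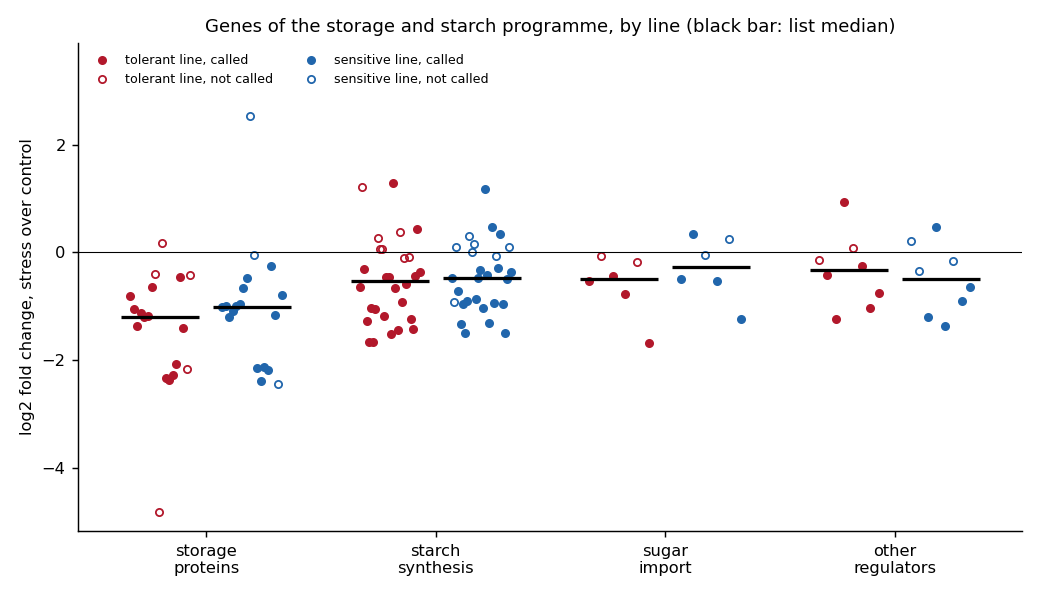
Log2 fold change, stress over control (TMM-scaled edgeR estimates), of each tested storage protein, starch synthesis, sugar import and other endosperm regulator row, in the tolerant line (red, left in each list) and the sensitive line (blue, right). Filled points were called at an adjusted p under 0.05, open points were not, and the black bar is the list median, which is below 0 for each list in both lines on this scale; with library totals alone the sugar import median is 0.15 in the sensitive line.

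The material was checked against markers of the grain's tissues, since the labels name no organ. Storage protein rows summed to 64750 to 66780 CPM in stressed and 121800 to 133600 CPM in control tolerant libraries, and to 55000 to 61370 CPM in stressed and 107400 to 115900 CPM in control sensitive libraries, so transcripts typical of filling endosperm were abundant in every library. Embryo markers summed to 1962 to 2044 CPM in stressed and 3510 to 3845 CPM in control tolerant libraries, and to 2378 to 2539 CPM in stressed and 3457 to 3499 CPM in control sensitive libraries. Of the 6 embryo markers 1 rose and 3 fell in the tolerant line and 2 rose and 3 fell in the sensitive line. The oleosin OLE16 had log2 changes of -1.05 and -0.58 in the tolerant and the sensitive line, while the late embryogenesis gene LEA3 had 0.46 and 0.81. OLE18, another oleosin, changed by -0.82 in the tolerant line, and RAB16A by 1.05 in the sensitive line. Photosynthesis markers (7 tested, 2 up and 1 down in the tolerant line, 2 up and 2 down in the sensitive line) summed to 864.9 to 907.4 CPM in stressed and 984.4 to 1047 CPM in control tolerant libraries, and to 907.3 to 966.5 CPM in stressed and 983.0 to 1037 CPM in control sensitive libraries. Of all tested loci, 16.7% rose and 16.6% fell in the tolerant line, and 16.3% rose and 15.9% fell in the sensitive line. RCA, the RuBisCO activase, averaged 158.3 CPM in stressed and 333.8 CPM in control tolerant libraries (log2 -1.08). In the sensitive line it averaged 174.4 and 262.2 CPM (log2 -0.59). The LHCB loci LOC_Os01g41710 and LOC_Os09g17740 changed by 0.47 and 0.315 in the tolerant line. RBCS3 changed by -0.54 and RBCS2 by 0.48 in the sensitive line. Transcripts typical of embryo and of green tissue were thus present in every library. The TMM-scaled sums of both marker lists were lower under stress, but a few abundant genes weigh most in them. In tolerant controls OLE16 and OLE18 averaged 1892 and 1633 CPM of a mean embryo sum of 3672 CPM. RCA averaged 333.8 CPM of a mean photosynthesis sum of 1016 CPM there. Other markers of both lists rose under stress, so the lower sums do not describe the lists as a whole. With TMM the median log2 change was -0.47 in the tolerant and -0.24 in the sensitive line for the embryo markers. For the photosynthesis markers it was -0.15 and 0.15, so the median marker did not share the lower sum in the sensitive line. Scaled by library totals alone, the median log2 change was -0.15 in the tolerant and 0.17 in the sensitive line for the embryo markers, and 0.16 and 0.56 for the photosynthesis markers. The part of embryo or green tissue in the changes of the regulators was not tested. In bulk RNA, fewer endosperm cells and less RNA of a gene per cell cannot be told apart.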

How the data were processed

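The authors deposited raw counts and FPKM for each locus, per the file headers. The submitters' processing notes list HISAT2 2.2.1, cutadapt 1.9, edgeR, DESeq2 and StringTie 2.1.6 without saying which made which values. The notes name a mouse build for rice data, and coordinates are therefore printed without a build. Of counts from 1 to 20, 37.6% to 40.8% were multiples of 4, so low counts may be less precise than they look. Libraries were stranded and depleted of ribosomal RNA, per the labels' protocols.

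Counts were fitted with edgeR 4.0.16 in R 4.3.3 (TMM factors, filterByExpr, 4 group means, glmQLFit and glmQLFTest, 5 two-sided contrasts), with Benjamini-Hochberg adjustment over 33281 loci and a threshold of 0.05; intervals are 95%. The scripts were tested on simulated data. Alternatives used DESeq2 1.42.0 and limma 3.58.1 on log2(FPKM + 1). All 9 genes are named in every comparison; from each further list, the 3 called loci with the largest change are named for each line, if their mean was at least 10 CPM and groups did not overlap, and all other regulators are named. SSI is named outside that rule, as a starch gene that rose. SERF1 was too low to test. The genes and lists were chosen with earlier results of these data known.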

Additional observations from a re-analysis of the deposited data

Results flagged for a closer look

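The heat response differed between the lines for 3 of the 9 regulators, by edgeR's test of the difference itself (tolerant minus sensitive line, 3 libraries per group). That test called 2.61% of all tested loci. NAC129 gave -0.91 on the log2 scale (edgeR adjusted p = 0.000221), with a deeper fall in the tolerant line. NF-YC12 gave 0.52 (edgeR adjusted p = 0.00182), with a larger rise in the tolerant line. NAC20 gave 0.31 (edgeR adjusted p = 0.0117), with a smaller fall in the tolerant line. Its controls differed between the lines by -0.35 and its stressed libraries by -0.04. With library totals alone NAC129 stayed called (edgeR adjusted p = 0.000293). On that scale NF-YC12 (edgeR adjusted p = 0.0787) and NAC20 (edgeR adjusted p = 0.305) were not called.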

How the results depend on the processing

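Of 1111 values of single genes over 25 other settings, 1017 kept their sign and side of the threshold, 54 lost a call, 14 gained one and 26 changed sign; the cause was not tested. Of the sign changes, 11 were of called values: NAC26 in the sensitive line (0.148 with library totals, 0.146 with FPKM) and in the tolerant line (0.013 with FPKM), and RISBZ1 in the sensitive line (0.149 with library totals, 0.145 and 0.147 with FPKM). The other 15 were of values not called with TMM scaling. These were NF-YB1 in the sensitive line (0.091 with library totals, 0.077 and 0.088 with FPKM); between the control lines, NAC26 (0.016), RISBZ1 (0.078) and NF-YB1 (0.001) with library totals, RISBZ1 with FPKM (0.049), and, without tolerant control replicate 1, RISBZ1 (0.006; -0.052 to 0.006 over the libraries left out) and NAC127 (0.002; -0.461 to 0.002); RPBF between the stressed lines (-0.082) and in the difference in response (-0.135) without sensitive stress replicates 1 and 2; and RSR1 in the difference in response without tolerant control replicate 3 (0.005; -0.178 to 0.005).

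With library totals, 5 genes were called and 3 fell in the sensitive line, 2 were called and 1 rose between the control lines, 2 were called and 1 fell between the stressed lines, and 1 was called and 0 rose for the difference in response. Of all tested loci that scaling called 37.2% in the sensitive line and 4.88% between the control lines. It called 2.09% between the stressed lines and 1.97% for the difference in response. On unfiltered FPKM 5 were called and 3 fell in the tolerant line. Between the control lines, RLE factors, each FPKM setting and counts divided by 4 gave 2 calls with 1 rise (NAC129, whose adjusted p over the settings that called it was 0.0065 to 0.0461), and DESeq2 gave 3 calls, 1 up and 2 down. Of all tested loci there, RLE factors called 5.5% and limma on FPKM with a pseudocount of 1 called 7.28%, beside 5.42% in the main fit. No such share is given for the other settings. Between the stressed lines, fitting only the groups compared gave 2 calls with 1 fall. The alternative added after the data were seen, without sensitive stress replicates 1 and 2, leaves 1 library assumed to vary like the others; it gave 1 call, 0 rises and 1 fall between the stressed lines and 1 rise for the difference in response, where NAC20 gave 0.29 (edgeR adjusted p = 0.141).

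Leaving out each of the 12 libraries gave 7 to 8 calls in the sensitive line, 7 to 9 in the tolerant line, 1 to 2 between the control lines with 0 to 1 rises (2 without tolerant control replicate 1), 2 to 4 between the stressed lines with 1 to 2 rises and 1 to 3 falls, and 3 to 4 for the difference in response. The fewest calls between the stressed lines came without tolerant stress replicate 2, sensitive stress replicate 1 or sensitive stress replicate 2.

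Replicate numbers did not pair the samples: correlations of same-numbered libraries were -0.012 to 0.029. With the replicate number as a block, 2 genes were called and 1 fell between the stressed lines (RISBZ1 and NAC26 were not called), and the other counts stayed within 1.5 times. DESeq2 gave no adjusted p for RPBF. Each of the 9 genes had at least 408 counts in every library.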
